A study of Mus musculus with 6 samples.

Results

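The lysosomal genes described here are 44 genes for enzymes, membrane proteins and proton pump subunits of the lysosome, together with the transcription factors Tfeb and Tfe3. They were taken as a list of symbols, by function, from the 26082 symbols of the deposited RNA-Seq table. An entry of their own was found for 41 of the 44, and each of these 41 reached a mean of at least 1 FPKM (fragments divided by transcript length and by library size) over the 6 samples and was tested, among 11130 genes tested in all. The other 3, Cd68, Mcoln1 and Glb1, stood in entries that join them with a neighbouring gene and were not tested as members.

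Lysosomes are acidic organelles in which hydrolases break down proteins, glycans and lipids that arrive by endocytosis, phagocytosis and autophagy. The vacuolar proton pump keeps the lumen acidic, heavily glycosylated membrane proteins line the limiting membrane, and most hydrolases are delivered through the mannose 6-phosphate pathway. Many lysosomal genes are targets of TFEB and TFE3, factors of the MiT/TFE family that bind E-box-like sites in promoters, and myeloid cells, above all macrophages and granulocytes, are rich in lysosomes.

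Expression was measured in MLL-AF9 cells, a model of acute myeloid leukemia in which c-Kit+ bone marrow progenitors of C57BL/6J mice carry a retroviral MLL-AF9 fusion oncogene and are transplanted into recipients. Leukemic mice received vehicle (3 samples) or oral DS-5272, an inhibitor of the p53-MDM2 interaction, at 80 mg/kg (3 samples), and 24 h later leukemia cells were extracted from bone marrow. All 6 samples carry MLL-AF9, the labels name no other allele, and an untransduced control was not analysed here. The sources used here do not give the age of the mice, how leukemia cells were separated from other marrow cells for RNA-Seq, or whether each sample came from 1 mouse, so the p-values measure the spread between these samples. The leukemia genes Meis1 and Pbx3 were between 66.1 and 110 FPKM and between 128 and 158 FPKM in every sample.

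The promoter sequences of these genes were searched for an E-box motif. The promoter windows of RefSeq (GRCm38.p6, 250 bases before to 50 bases after a transcription start) matched 38 of the 44 genes, with 44 windows. The E-box CACGTG, a palindrome that reads the same on both strands, was in 13 of the 44 windows, 29.5%, against 7.15% of all 32851 windows. Its extension by 1 flanking base, TCACGTG or its reverse complement CACGTGA, was in 12 windows, 27.3%, against 3.77% of all windows. The 8-letter palindrome TCACGTGA was in 6 windows, 13.6%, against 0.974%. Each longer motif contains the shorter, so the 3 shares overlap, and these shares are a description with no test. The median GC content was 56.3% in the windows of the lysosomal genes and 52.7% in all windows.

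**Figure D1:**
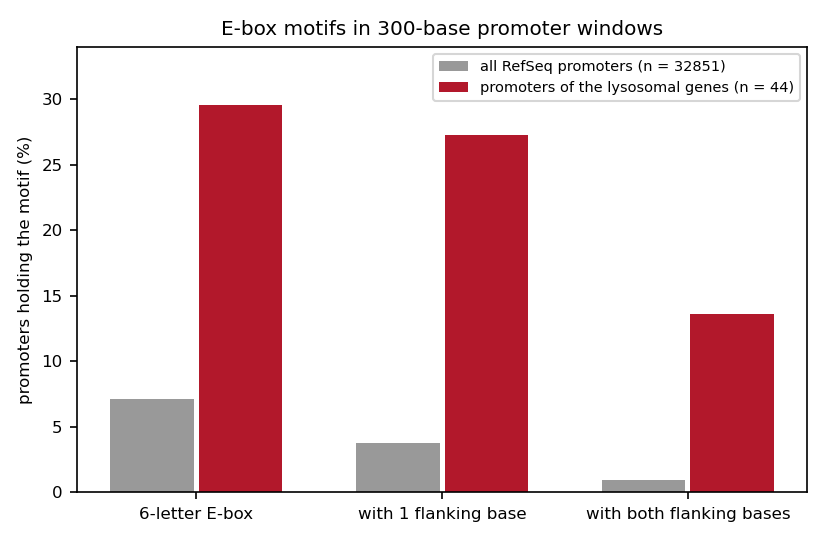
Share of 300-base RefSeq promoter windows, in percent, that hold the E-box in its 6-letter form, with 1 flanking base and with both flanking bases, for all 32851 windows (grey) and the 44 windows of the lysosomal genes (red). The red bars stand at 29.5%, 27.3% and 13.6% and the grey bars at 7.15%, 3.77% and 0.974%.

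The stretches around the sites are shown for 7 genes whose expression rose after DS-5272, with the longest of the motifs in capitals. Lamp1 (chr8:13159079-13159171, + strand) holds 4 sites, from 62 to 16 bases before the start, and Ctsa (chr2:164833740-164833804, + strand) and Gla (chrX:134601173-134601253, - strand) hold 2 each. Ctsd (chr7:142387899-142387946, - strand), Atp6v0d1 (chr8:105566041-105566088, - strand), Atp6v1a (chr16:44139364-44139411, - strand) and Lgmn (chr12:102439116-102439162, - strand) hold 1 site in the stretch shown.
Lamp1: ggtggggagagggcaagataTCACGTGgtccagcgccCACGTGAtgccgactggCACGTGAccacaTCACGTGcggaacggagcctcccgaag
Ctsa: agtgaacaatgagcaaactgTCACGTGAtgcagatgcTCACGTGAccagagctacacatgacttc
Gla: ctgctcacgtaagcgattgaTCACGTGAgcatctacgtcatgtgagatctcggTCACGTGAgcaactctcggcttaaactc
Ctsd: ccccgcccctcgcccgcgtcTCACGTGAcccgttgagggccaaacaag
Atp6v0d1: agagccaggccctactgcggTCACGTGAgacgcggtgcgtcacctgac
Atp6v1a: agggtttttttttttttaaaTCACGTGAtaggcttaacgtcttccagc
Lgmn: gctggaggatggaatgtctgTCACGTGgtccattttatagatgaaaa

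The same letters also stood in the windows of Gaa (chr11:119267802-119267848, + strand), Naglu (chr11:101070000-101070046, + strand) and Sgsh (chr11:119355513-119355559, - strand), 3 genes that did not pass the test between the groups, and they are shown for that contrast.
Gaa: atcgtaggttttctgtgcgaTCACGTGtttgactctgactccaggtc
Naglu: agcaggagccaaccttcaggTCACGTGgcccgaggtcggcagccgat
Sgsh: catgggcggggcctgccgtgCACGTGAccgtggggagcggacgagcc

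Of the windows of genes that rose, 8 of 33 held CACGTG, 24.2%, and of the windows of genes that did not pass the test, 3 of 8, 37.5%. The 8-letter palindrome TCACGTGA was in 5 of the 33 windows and in 0 of the 8, so the shares of the short and the long motif ran in opposite directions, in few windows and with no test. The windows of the joined genes Mcoln1 and Glb1 held CACGTG as well, and of these only that of Mcoln1 held TCACGTGA.

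DS-5272 treatment was accompanied by upregulation across the lysosomal gene set. Of the 41 genes tested, 32 rose, none fell and 9 did not pass the threshold (limma, Benjamini-Hochberg adjusted p under 0.05 over all 11130 genes). Over all genes tested, 24.2% rose and 22% fell. The median log2 fold change of the lysosomal genes was 0.82, with a range from -0.08 to 3.27, and the median over all genes tested was 0.04. The 3 DS-5272 samples lay above the 3 vehicle samples without overlap for 34 of the 41 genes, against 32.1% of all genes, and below them for none, against 29.7%. Fold changes here are differences of means of log2(FPKM + 1), which understates the change of genes at a low level.

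The summed level of the 41 genes was 3280.3, 3515 and 3559 FPKM in the vehicle samples, in the order of replicates 1 to 3 that is kept throughout, and 7555, 6630.2 and 7810.1 FPKM in the DS-5272 samples. The sum was 3451 ± 149.8 FPKM with vehicle and 7332 ± 620.8 FPKM with DS-5272 (mean ± SD, n = 3), a ratio of 2.12. As a share of all FPKM in a sample, the genes took 0.737%, 0.714% and 0.71% in the vehicle samples and 1.51%, 1.14% and 1.18% in the DS-5272 samples. Both measures separated the groups in every sample. In bulk RNA, more or fewer cells of a type and more or less RNA per cell cannot be told apart.

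The scale of the samples was not the same. The FPKM of a sample summed to between 445317 in vehicle replicate 1 and 661184 in DS-5272 replicate 3, and the depth read from genes with few fragments, relative to vehicle replicate 1, was 0.808 and 0.885 in the other vehicle samples and 0.746, 0.652 and 0.539 in the DS-5272 samples. With each sample rescaled to a common total (TPM), 28 of the 41 genes rose, none fell, 35 were higher with DS-5272, and the median log2 fold change was 0.57. The median of all genes moved to -0.21 under that rescaling, and the lysosomal median stood 0.77 above the median of all genes on either scale. The same rescaling put 15.4% of all genes as risen, and 32.7% of all genes called under it were higher, against 52.4% on the FPKM scale.

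**Figure D2:**
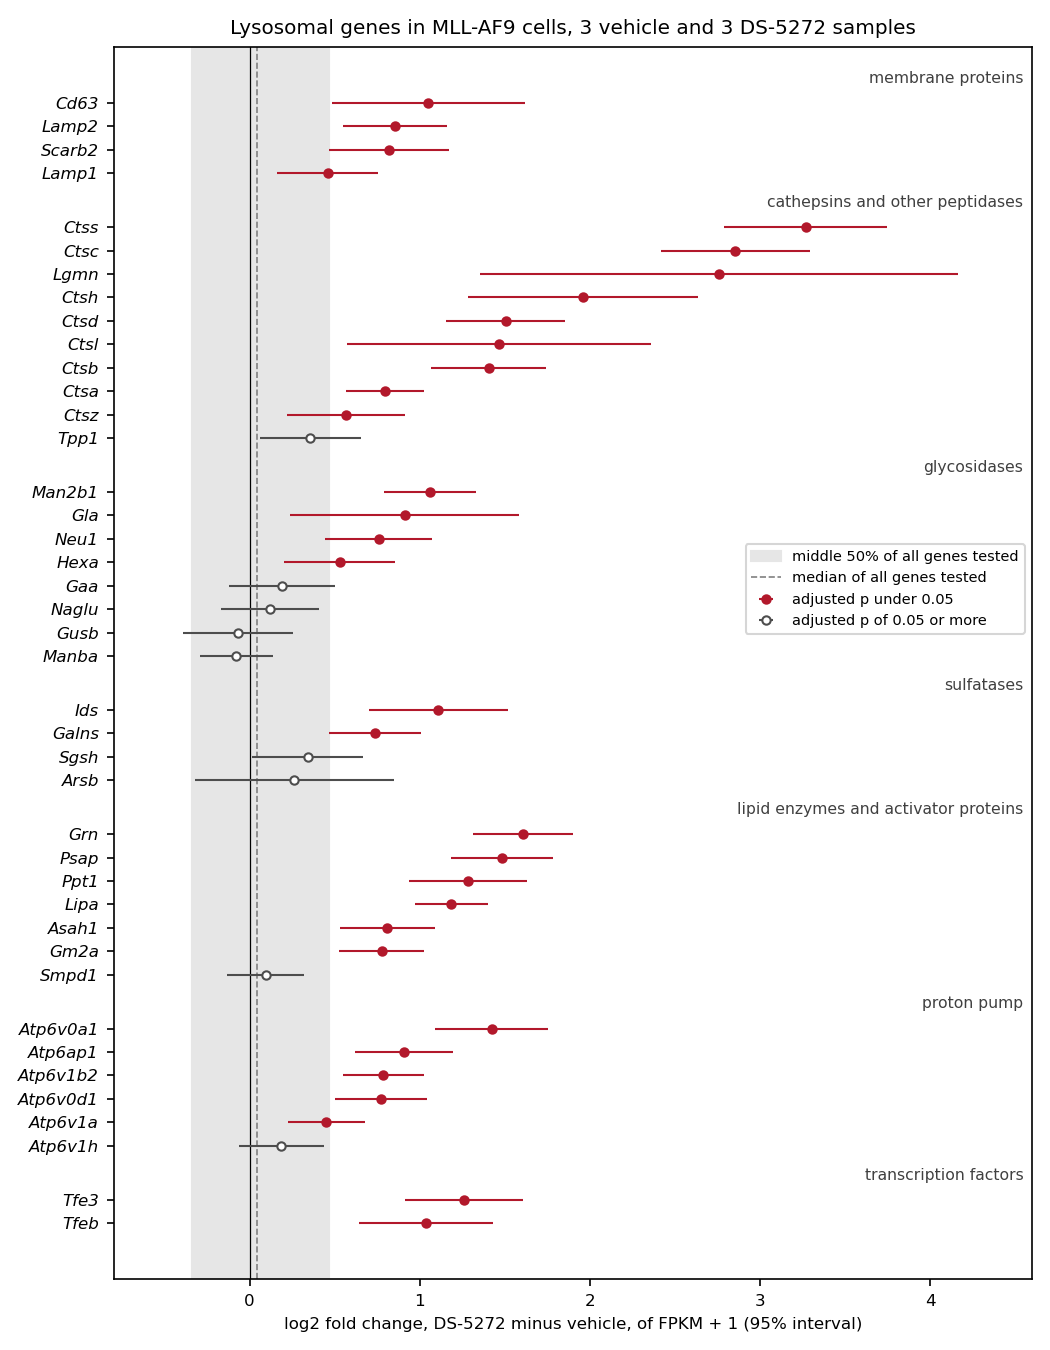
Log2 fold change of the 41 lysosomal genes (DS-5272 minus vehicle, of FPKM + 1, 3 samples a group) with its 95% interval from limma, grouped by role. Filled red points passed the adjusted threshold, open points did not, the grey band holds the middle 50% of all genes tested and the dashed line their median of 0.04. Cathepsins reach the largest values, up to 3.27 for Ctss, and Gusb and Manba lie just below 0.

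Markers of cell types moved as well, and their values belong beside every count of lysosomal genes. Over all genes tested, 24.2% rose and 22% fell. The paper reports differentiation of MLL-AF9 cells after DS-5272, with Gr-1 higher in subsets of the leukemia cells. Myeloid markers of leukemia cells and of other marrow cells cannot be told apart here. Of 13 macrophage markers tested, 5 rose, among them Siglec1, Adgre1 and the complement genes C1qa, C1qb and C1qc, and the summed level of the 14 markers was 79.9 to 137 FPKM with vehicle and 512, 219 and 286 FPKM in the DS-5272 samples. None of the 14 was at 0 in any sample, and Timd4, a marker of resident macrophages, was the lowest, at 1.18 FPKM in DS-5272 replicate 1 and at or below 0.055 FPKM elsewhere. DS-5272 replicate 1 stood apart within its group, with C1qb at 58.2 FPKM against 14.1 and 15.6, and Cd5l at 61.7 FPKM against 1.76 and 4.43. Of 8 mature neutrophil markers, 6 rose, and their sum was 145, 1060.3 and 1613 FPKM in the vehicle samples and 2944, 8853 and 14156 FPKM in the DS-5272 samples. Of 7 monocyte markers tested, 6 rose, including Itgam, Csf1r and Cd14. The other, Ly6c2, was lower with overlap and did not pass (log2 fold change -0.39, adjusted p = 0.19). It was at 842 to 906 FPKM with vehicle and 497 to 898 FPKM with DS-5272. The 8 listed monocyte markers, Ly6c2 included, summed to 1359 to 1532 FPKM with vehicle and 2526 to 3396 FPKM with DS-5272. Of 5 MLL-AF9 leukemia genes tested, 1 rose and 1 fell, near the shares of all genes. Mef2c rose, at 0.098 to 0.295 FPKM with vehicle and 1.54 to 2.45 FPKM with DS-5272, and Kit fell, at 30.5 to 45.04 and 4.94 to 12.1 FPKM. Mef2c, and Ly6g among the neutrophil markers, reached a mean of 1 FPKM only through the DS-5272 samples. The same holds for Axl, Mrc1, Mertk and Spic among the macrophage markers tested. Summed markers of NK, T, B, megakaryocytic and stromal cells with an entry of their own were each at or below 6.95 FPKM in every sample. The megakaryocyte marker Gp1bb stood in a joined entry and was left out. That entry was at 6.04, 22.9 and 28.7 FPKM in the vehicle samples and 21.97, 61.1 and 90.03 FPKM in the DS-5272 samples. The separate level of Gp1bb is unknown. Itga2b, Pf4 and Ppbp of the megakaryocyte list were higher with DS-5272 without overlap, and Gp9 overlapped. Itga2b did not pass, and Pf4 and Ppbp were not tested. Erythroid markers summed to 1.52 to 3.65 FPKM with vehicle and 90.9, 16.7 and 8.01 FPKM in the DS-5272 samples. Among them the globin gene Hba-a1 rose (log2 fold change 3.31, adjusted p = 0.018). The part of these cell types in the lysosomal values was not tested. Without DS-5272 replicate 1, which held the highest macrophage sum, 32 of the 41 lysosomal genes rose, against 26.4% of all genes. They were the same 32 genes as with it, at a median of 0.85. The DS-5272 samples left in, at 219 and 286 FPKM, still had higher macrophage sums than vehicle, so this fit did not test their part.

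**Figure D3:**
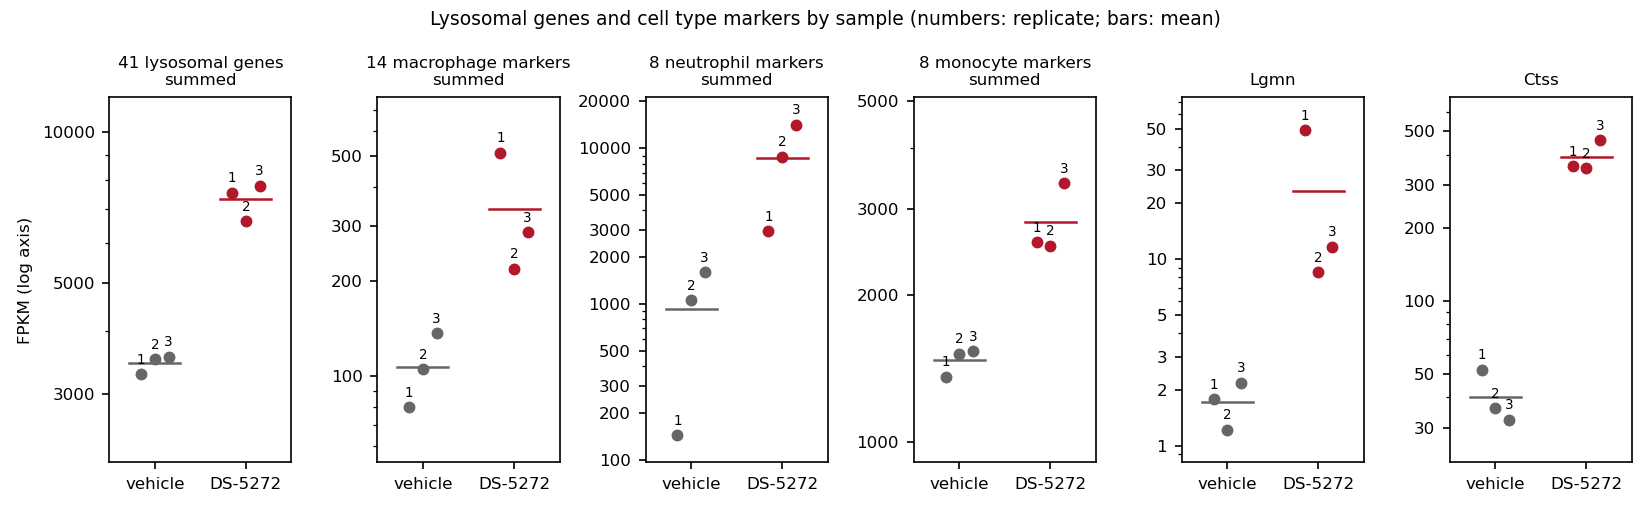
FPKM by sample on log axes, 3 vehicle samples (grey) and 3 DS-5272 samples (red), with replicate numbers and the group mean as a bar, for the 41 lysosomal genes summed, 3 lists of cell type markers summed, and Lgmn and Ctss. DS-5272 replicate 1 is highest for the macrophage markers (512 FPKM) and Lgmn (49.4 FPKM), while DS-5272 replicate 3 is highest for the neutrophil markers (14156 FPKM) and Ctss (460.3 FPKM).

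Cathepsins and other peptidases had the highest median log2 fold change of the 7 roles, 1.49. Of 10 genes, 9 rose and Tpp1 did not pass, and the summed level was 1043 to 1119 FPKM with vehicle and 2658 to 3206 FPKM with DS-5272. Ctss (chr3:95526786-95556403, GRCm38), which encodes cathepsin S, the cysteine protease that trims the invariant chain in MHC class II loading, was at 52.1, 36.2 and 32.4 FPKM in the vehicle samples and at 360.1, 353 and 460.3 FPKM in the DS-5272 samples. Its lowest DS-5272 value lay far above its highest vehicle value, and the log2 fold change was 3.27 ± 0.20 (SE, adjusted p = 0.00061).

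Ctsc (chr7:88278085-88310888) encodes cathepsin C, which activates the serine proteases of granulocyte and lymphocyte granules. It was at 54.1, 47.9 and 39.5 FPKM in the vehicle samples and at 433, 320.1 and 296 FPKM in the DS-5272 samples. The groups did not overlap, DS-5272 replicate 1 was the highest, and the log2 fold change was 2.86 ± 0.18 (SE, adjusted p = 0.00061).

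Lgmn (chr12:102394084-102439813) encodes legumain, an asparaginyl endopeptidase that processes cathepsins. Its levels were 1.77, 1.22 and 2.18 FPKM in the vehicle samples, the lowest of the 41 genes, and 49.4, 8.50 and 11.7 FPKM in the DS-5272 samples. All 3 DS-5272 samples were above all vehicle samples, but replicate 1 was 4.23 times the next DS-5272 sample, a ratio that was at most 1.35 (Ctsc) for the other 40 genes. The log2 fold change was 2.76 ± 0.59 (SE, adjusted p = 0.011) with that sample and 2.03 (adjusted p = 0.0035) without it. It is the sample with the highest macrophage markers, and their part in the value of Lgmn was not tested.

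The remaining peptidases followed at smaller steps. Ctsh, an aminopeptidase, rose by 1.96 on the log2 scale, Ctsd, the main aspartic protease of the lysosome, by 1.51, Ctsl by 1.47, Ctsb by 1.41, the protective protein of neuraminidase and beta-galactosidase Ctsa by 0.80, and the carboxypeptidase Ctsz by 0.57. Ctsd was the most abundant lysosomal gene after DS-5272, at 953 ± 147 FPKM against 333 ± 11.4 FPKM with vehicle (mean ± SD, n = 3). Ctsl, Ctsh and Cd63 shared a low value in vehicle replicate 1, at 21.4, 35.3 and 61.2 FPKM against at least 50.5, 58.9 and 100.6 FPKM in the other vehicle samples, and that sample also had the lowest neutrophil marker sum. The calls of Ctsz under TPM and without any 1 of the vehicle replicates, and of Ctsl without DS-5272 replicate 2 or 3, were lost. Tpp1, a tripeptidyl peptidase, was at 57.2 to 65.2 FPKM with vehicle and 66.8 to 85.7 FPKM with DS-5272, with no overlap and an adjusted p of 0.054, and passed with the replicate number as a block (adjusted p = 0.023).

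Lysosomal lipid enzymes and activator proteins, a role in which Grn was also placed, came next, where 6 of 7 rose and the median was 1.19 on the log2 scale. Grn (chr11:102430315-102437048) encodes progranulin, a secreted and lysosomal protein that is cut into granulins. It was at 190.1, 192 and 187 FPKM in the vehicle samples and at 574, 515 and 660.2 FPKM in the DS-5272 samples. Vehicle values lay within a few FPKM of each other, all DS-5272 values were higher, and the log2 fold change was 1.61 ± 0.12 (SE, adjusted p = 0.00073).

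Psap (chr10:60277627-60302597), the precursor of the saposins that help enzymes reach sphingolipids, was at 136, 137 and 137 FPKM in the vehicle samples and at 434, 329.7 and 397 FPKM in the DS-5272 samples. The groups were far apart, with a log2 fold change of 1.48 ± 0.13 (SE, adjusted p = 0.00099). Ppt1, a palmitoyl-protein thioesterase, was at 99.7, 90.0 and 84.3 FPKM in the vehicle samples and at 265, 191 and 219.6 FPKM in the DS-5272 samples. It did not overlap either and rose by 1.28 ± 0.15 on the log2 scale (SE, adjusted p = 0.0021).

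The acid lipase Lipa rose by 1.19 with the narrowest 95% interval of the lipid genes, 0.97 to 1.40, the acid ceramidase Asah1 by 0.81, and the GM2 activator Gm2a by 0.78. Smpd1, the acid sphingomyelinase, was at 10.6 to 12.0 FPKM with vehicle and 11.6 to 12.6 FPKM with DS-5272. Its groups overlapped and the 95% interval of its log2 fold change was -0.13 to 0.32, below the lower bounds of the other 6 genes of this role.

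**Figure D4:**
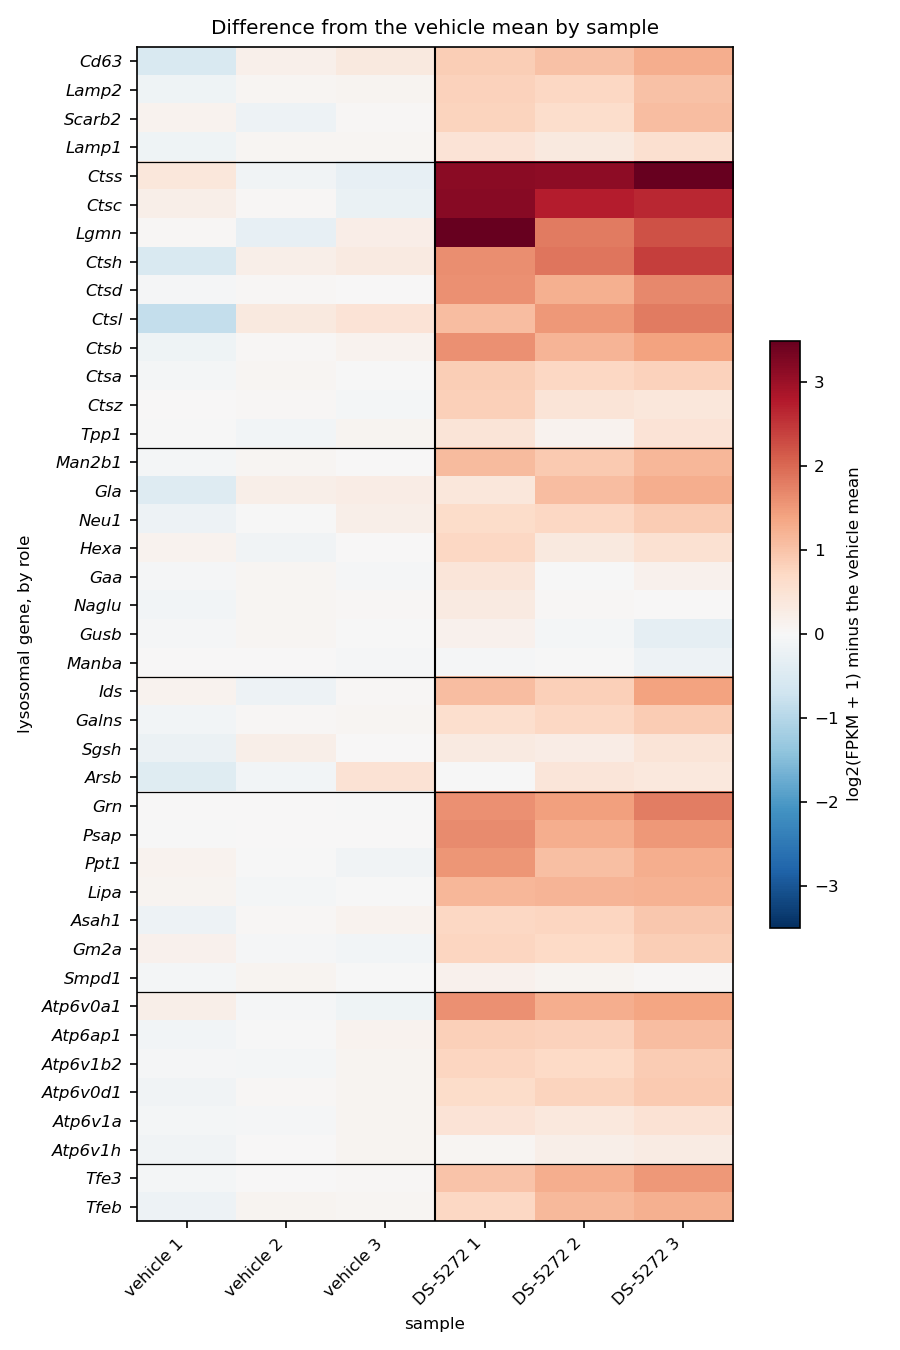
Difference of log2(FPKM + 1) from the vehicle mean for the 41 lysosomal genes (rows, by role) in each of the 6 samples (columns), red above and blue below the vehicle mean. The DS-5272 columns are red for most rows, and Lgmn in DS-5272 replicate 1 is the one value of its row far above the other DS-5272 values.

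For the proton pump, 5 of 6 genes rose, and their median was 0.78 on the log2 scale. Atp6v0a1, a subunit of the membrane sector, was at 10.6, 8.80 and 8.04 FPKM in the vehicle samples and at 29.9, 23.4 and 25.4 FPKM in the DS-5272 samples. No value overlapped, and the log2 fold change was 1.42 ± 0.14 (SE, adjusted p = 0.0014). The accessory subunit Atp6ap1 was at 93.8, 99.3 and 109.5 FPKM in the vehicle samples and at 180, 176 and 215 FPKM in the DS-5272 samples. It rose by 0.91 ± 0.12 on the log2 scale (SE, adjusted p = 0.0032), without overlap.

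Atp6v1b2, a nucleotide-binding subunit of the cytosolic sector, was at 53.9, 52.7 and 59.4 FPKM in the vehicle samples and at 94.1, 90.8 and 103 FPKM in the DS-5272 samples. It rose by 0.79 ± 0.10 on the log2 scale (SE, adjusted p = 0.0029) and its groups lay apart. Atp6v0d1 of the membrane sector rose by 0.77, and the catalytic subunit Atp6v1a by 0.45, a call that was lost under TPM and without vehicle replicate 2. Atp6v1h was at 25.5 to 30.1 FPKM with vehicle and 29.5 to 34.3 FPKM with DS-5272, with overlap, and its log2 fold change of 0.19 had an adjusted p of 0.18.

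All 4 lysosomal membrane proteins tested rose, with a median log2 fold change of 0.84. Cd63 (chr10:128900989-128912822), a tetraspanin of late endosomes and lysosomes, was at 61.2, 100.6 and 112 FPKM in the vehicle samples and at 161, 180.4 and 214 FPKM in the DS-5272 samples. Its groups lay apart despite the spread of the vehicle samples, with a log2 fold change of 1.05 ± 0.24 (SE, adjusted p = 0.013).

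Lamp2, a major glycoprotein of the limiting membrane, was at 141, 165 and 170.5 FPKM in the vehicle samples and at 277, 264 and 323 FPKM in the DS-5272 samples. It rose by 0.85 ± 0.13 (SE, adjusted p = 0.0043) with no overlap. Scarb2, the receptor that carries beta-glucocerebrosidase to the lysosome, was at 22.3, 18.0 and 21.1 FPKM in the vehicle samples and at 35.7, 31.4 and 43.8 FPKM in the DS-5272 samples. It rose by 0.82 ± 0.15 (SE, adjusted p = 0.0068), also with no overlap.

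Lamp1, the other major membrane glycoprotein, was the most abundant lysosomal gene with vehicle, at 369 ± 31.8 FPKM, and stood at 507 ± 39.7 FPKM with DS-5272 (mean ± SD, n = 3). Its rise of 0.46 was the smallest of the 4 and was lost under TPM and in 4 of the 6 fits without 1 sample. The joined entry of Cd68 and the translation factor Eif4a1 was at 568 to 582 FPKM with vehicle and 569 to 658 FPKM with DS-5272, and that of Mcoln1 and Pnpla6 at 21.6 to 23.4 and 25.2 to 30.4 FPKM, so the separate levels of Cd68 and Mcoln1 are unknown.

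Glycosidases were split. Of 8 tested, 4 rose and 4 did not pass, with a median log2 fold change of 0.36. Man2b1, lysosomal alpha-mannosidase, was at 147.5, 162 and 159 FPKM in the vehicle samples and at 339, 293 and 350.4 FPKM in the DS-5272 samples. All 3 DS-5272 values were above all vehicle values and the log2 fold change was 1.06 ± 0.11 (SE, adjusted p = 0.0018).

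Gla, alpha-galactosidase A, was at 18.0, 28.9 and 29.9 FPKM in the vehicle samples and at 33.0, 54.1 and 61.7 FPKM in the DS-5272 samples. The groups were separated by a narrow gap, from 29.9 to 33.0 FPKM, and the log2 fold change of 0.91 ± 0.28 (SE, adjusted p = 0.036) lost its call in 6 of 13 alternatives, among them the fit without any 1 vehicle sample. Neu1, a neuraminidase, was at 47.2, 53.6 and 61.8 FPKM in the vehicle samples and at 84.4, 90.3 and 101 FPKM in the DS-5272 samples. It rose by 0.76 ± 0.13 (SE, adjusted p = 0.0060), without overlap.

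Hexa, the alpha subunit of beta-hexosaminidase, rose by 0.53 ± 0.14 (SE, adjusted p = 0.020), a call lost under TPM and without vehicle replicate 2 or 3. Gaa, acid alpha-glucosidase, Naglu, a heparan sulfate enzyme, Gusb, beta-glucuronidase, and Manba, beta-mannosidase, gave log2 fold changes of 0.19, 0.12, -0.07 and -0.08. Their groups overlapped, and their 95% intervals ran from -0.12 to 0.50 for Gaa, -0.17 to 0.41 for Naglu, -0.39 to 0.26 for Gusb and -0.29 to 0.14 for Manba. Gusb was among the abundant enzymes, at 152 ± 6.13 FPKM with vehicle and 146 ± 23.5 FPKM with DS-5272 (mean ± SD, n = 3). The joined entry of Glb1 and Tmppe was at 38.6 to 41.3 FPKM with vehicle and 44.2 to 52.2 FPKM with DS-5272.

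Among the 4 sulfatases, which remove sulfate from glycosaminoglycans, 2 rose, with a median log2 fold change of 0.54. Ids, iduronate sulfatase, was at 4.26, 3.29 and 3.98 FPKM in the vehicle samples and at 9.14, 7.65 and 11.9 FPKM in the DS-5272 samples. It rose by 1.11 ± 0.17 (SE, adjusted p = 0.0045) without overlap. Galns, which acts on keratan sulfate, was at 54.0, 59.6 and 60.1 FPKM in the vehicle samples and at 86.9, 96.7 and 108 FPKM in the DS-5272 samples. It rose by 0.74 ± 0.11 (SE, adjusted p = 0.0045), also without overlap. Sgsh (log2 fold change 0.34, adjusted p = 0.079) and Arsb (0.26, adjusted p = 0.40) did not pass, and the Arsb vehicle samples spread from 24.96 to 47.7 FPKM.

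Both transcription factors rose. Tfe3 was at 14.6, 15.5 and 15.9 FPKM in the vehicle samples and at 31.4, 38.4 and 45.9 FPKM in the DS-5272 samples, and its values did not overlap. The log2 fold change was 1.26 ± 0.15 (SE, adjusted p = 0.0022). Tfeb was at 5.61, 7.06 and 6.85 FPKM in the vehicle samples and at 11.3, 15.4 and 16.8 FPKM in the DS-5272 samples. It did not overlap either, with a log2 fold change of 1.04 ± 0.17 (SE, adjusted p = 0.0049). Their activity is set largely by phosphorylation and nuclear entry, which RNA levels do not measure.

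Other genes of the lysosomal system were read from lists of the same fit, in which 24.2% of all genes rose and 22% fell. Of 31 further hydrolases tested, 17 rose and none fell (median 0.51; with the replicate block 20 rose and Galc fell, adjusted p = 0.048), led by the sulfatase Arsg, at 3.63 to 4.15 FPKM with vehicle and 10.4 to 17.2 FPKM with DS-5272 (log2 fold change 1.62), and including the phospholipase B-like gene Plbd1 (1.604). Plbd1 was at 0.226 to 0.644 FPKM with vehicle and 2.496 to 4.03 FPKM with DS-5272. It reached a mean of 1 FPKM only through the DS-5272 samples. Of 12 further pump subunits, 7 rose and none fell (median 0.58), led by Atp6v1e1 (1.04), Atp6v1g1 (0.97) and Atp6v0b (0.68). Of 21 further membrane proteins and transporters, 16 rose and 2 fell (median 0.59). The peptide and histidine transporter Slc15a3 was at 2.58 to 3.002 FPKM with vehicle and 43.9 to 59.5 FPKM with DS-5272 (log2 fold change 3.79), the metal transporter Slc11a1 at 6.11 to 7.98 and 51.5 to 115 FPKM (3.31), and the two-pore channel Tpcn2 at 7.43 to 10.3 and 17.1 to 26.4 FPKM (1.08). Its relative Tpcn1 went the other way, from 26.5 to 33.7 FPKM with vehicle to 10.9 to 17.5 FPKM with DS-5272 (-1.09).

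Sorting and control genes were nearer to the shares of all genes. Of 11 mannose 6-phosphate sorting genes, 4 rose and 2 fell (median 0.17), with Sorl1 (0.9998), the sulfatase-modifying enzyme Sumf1 (0.43) and the adaptor Gga1 (0.42) rising and Igf2r, the large mannose 6-phosphate receptor, falling from 4.16 to 8.09 FPKM with vehicle to 1.22 to 2.42 FPKM with DS-5272 (-1.35). The call of Sumf1 was lost under TPM and without any 1 vehicle sample, that of Gga1 in those settings and without DS-5272 replicate 2 or 3, and that of the fourth risen gene, Gnptg, in 10 of 13 alternatives. Of 17 genes of MiT/TFE and mTORC1 control, 6 rose and 1 fell (median 0.14). Mitf, another factor of the MiT/TFE family, rose from 1.44 to 1.85 FPKM to 4.51 to 6.00 FPKM (1.21), as did the folliculin partners Fnip2 (0.86) and Fnip1 (0.65). The small GTPase Rragb fell (-0.93), at 1.58 to 2.38 FPKM with vehicle and 0.228 to 0.707 FPKM with DS-5272. Rragb reached a mean of 1 FPKM only through the vehicle samples. Under TPM the medians of these 2 lists changed sign, to -0.07 and -0.13, above the median of all genes on that scale, -0.21.

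Of 13 genes of lysosome fusion and positioning, 8 rose and none fell (median 0.37), led by Arl8a (0.91), which links lysosomes to kinesin, Plekhm1 (0.78) and Stx7 (0.72). Of 7 cystatin and serpin genes outside the stefin A cluster, 2 rose and 1 fell (median 0.32), near the shares of all genes. With the replicate block 3 rose and 2 fell. The list was drawn up as cathepsin inhibitors, a role that was not checked for each serpin. The stefin Cstb, an inhibitor of cysteine cathepsins, was at 48.9 to 56.6 FPKM with vehicle and 131 to 154 FPKM with DS-5272 (log2 fold change 1.41). Serpinb8 rose by 1.18 at low levels, 0.156 to 0.31 FPKM with vehicle and 1.18 to 2.84 FPKM with DS-5272. Serpinb8 reached a mean of 1 FPKM only through the DS-5272 samples. Cst7, at 59.7 to 64.4 and 44.5 to 51.9 FPKM (-0.36), fell, a call that was lost without any 1 vehicle sample. Under TPM, with 15.4% of all genes risen, the counts were 10 of 31 hydrolases, 6 of 12 pump subunits, 7 of 21 membrane proteins, 1 of 11 sorting genes, 4 of 17 control genes, 5 of 13 fusion genes and 2 of 7 inhibitors.

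**Figure D5:**
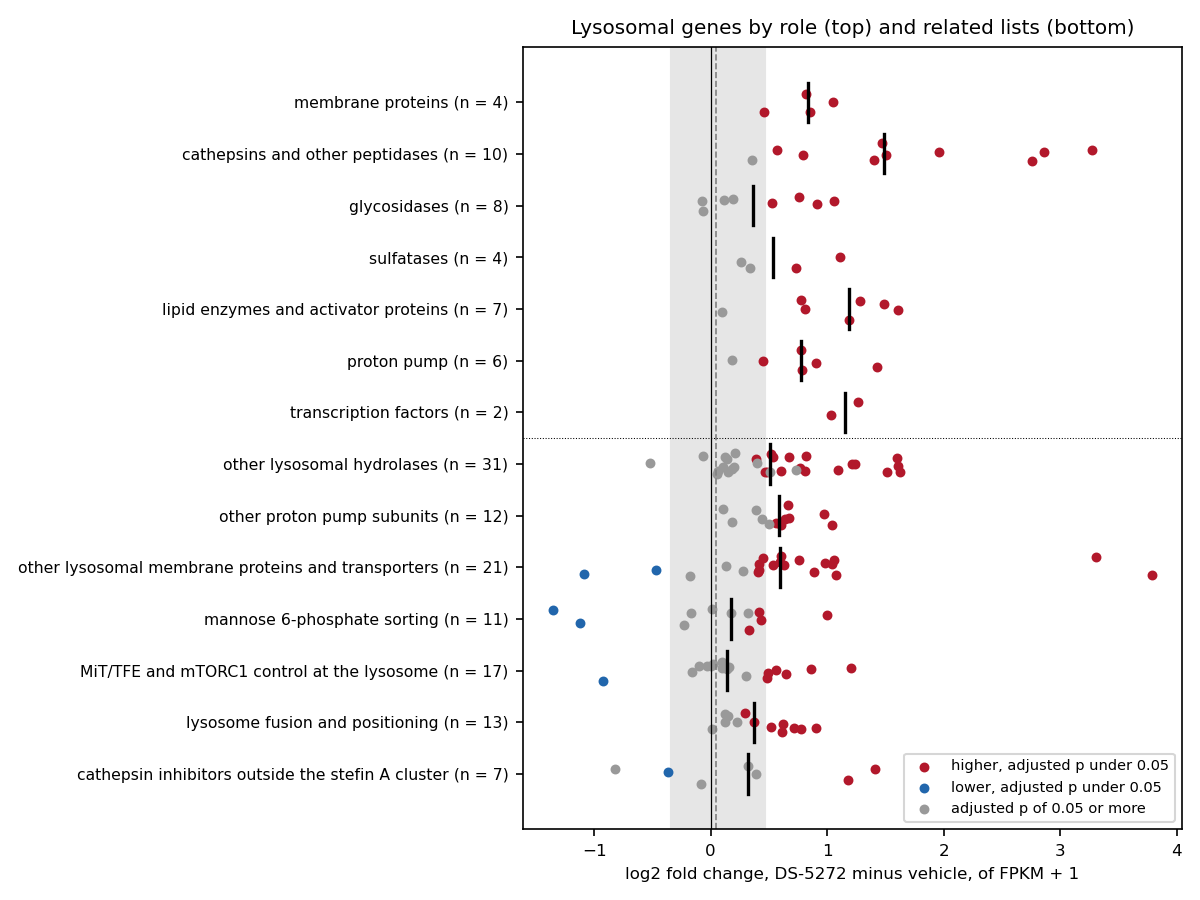
Log2 fold change of each gene tested (points), with the median of a list as a black bar, for the 7 roles of the lysosomal genes (above the dotted line) and 7 related lists (below it). Red points rose, blue points fell and grey points did not pass the adjusted threshold. The grey band holds the middle 50% of all genes tested and the dashed line is their median of 0.04. Medians run from 0.36 for glycosidases to 1.49 for cathepsins and other peptidases, and from 0.14 to 0.59 in the related lists. Under TPM the sorting and control lists turn to -0.07 and -0.13, and the median of all genes to -0.21.

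Within the groups, the lysosomal genes did not share one order of samples. Among the DS-5272 samples, replicate 3 was highest for 26 of the 41 genes and replicate 1 for 13, while replicate 2 was lowest for 22. Among the vehicle samples, replicate 1 was lowest for 26. The order of levels also differed between the groups. With vehicle the highest 5 were Lamp1, Ctsd, Ctsz, Grn and Hexa, and with DS-5272 they were Ctsd, Grn, Lamp1, Ctsz and Ctss. Lamp1 and Ctsd overlapped in the vehicle samples, at 332 to 388 and 320.1 to 343 FPKM, so their order with vehicle is within the spread.

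In the GENCODE annotation, 12 of the 41 genes have an exon that shares bases with a different gene, 9 of them among the genes that rose, such as Ctsd with Gm49369 on the same strand, Grn with Fam171a2 and Ctsb with Fdft1 on the opposite strand. No source used here says that strand was used in counting, and fragments of the neighbour can be part of their FPKM.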

How the data were processed

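Paired-end, strand-specific RNA-Seq reads were trimmed by the authors (cutadapt 1.8.1), checked with FastQC, and aligned to GRCm38 reference transcripts with TopHat2 2.1.1, and Cufflinks 2.2.1 gave the deposited FPKM values per gene, which are divided by transcript length and library size. No counts per gene are given, so depth in fragments is unknown, no count model was run, and the relative depths only give a scale. Samples were grouped by the treatment label. The 26632 lines held 26082 symbols. Lines sharing a symbol (435 symbols) were summed and 433 lines joining several genes were kept as entries of their own.

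Groups were compared with limma 3.58.1 in R 4.3.3 (lmFit and eBayes with trend, two-sided) on log2(FPKM + 1) for genes whose 6 samples averaged 1 FPKM or more, with Benjamini-Hochberg adjustment and a threshold of 0.05. The script was tested on simulated data. For 1 gene, with 3 samples against 3, exact permutation could reach p = 0.1 at the lowest. Promoters were searched with Python 3.11.15 and pandas 2.3.3, and figures drawn with matplotlib 3.10.9. Lysosomal genes and lists were chosen with earlier results of these data known. In each role the 3 largest changes past the threshold and both transcription factors are given by sample, and in each related list the 3 largest that share the sign of its median, with the largest of opposite sign if past the threshold. A gene that this rule selects is not reported here and was not replaced. Values of other genes named, among them Ctsd, Tpp1, Smpd1, Lamp1, Gusb, Meis1, Pbx3, Kit, Mef2c, Hba-a1, Galc, Gnptg, C1qb and Cd5l, were chosen after they were seen.

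Replicate numbers run from 1 to 3 in both groups. Deviations from the group means correlated by 0.66, 0.21 and 0.43 between samples of the same number, and by -0.58 to 0.34 between samples of different numbers. All 3 same-number values were above 0.1, the limit used to regard same-numbered samples as pairs, on the data alone. The main fit did not use these pairs, so its errors, adjusted p-values and calls are unpaired. Pairing enters only through the replicate block. The other settings tried were a pseudocount of 0.1, a filter at a mean of 5 FPKM or none, scaling to a common total (TPM), upper quartile or median ratio, the replicate block, and leaving out each sample.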

Additional observations from a re-analysis of the deposited data

How the results depend on the processing

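Of the 41 lysosomal genes, 34 kept their side of the threshold under all 13 alternatives and none reversed. The calls of Atp6v1a, Ctsl, Ctsz, Gla, Hexa and Lamp1 were lost under some alternative and Tpp1 gained one. Between 27 and 32 genes rose with 1 sample left out (27 without vehicle replicate 2), with medians from 0.75 to 0.87, and 33 rose with the replicate number as a block, which added Tpp1 and changed no other call among the lysosomal genes. In the related lists the block gave 20 in place of 17 hydrolases, 9 in place of 7 pump subunits, 15 in place of 16 membrane proteins and 5 in place of 4 sorting genes risen. For the markers the block gave 7 in place of 5 macrophage and 8 in place of 6 neutrophil genes risen. The added macrophage genes were Cd5l and Spic. Spic was at 0.096 to 0.33 FPKM with vehicle and at 5.65, 0.477 and 0.828 FPKM in the DS-5272 samples. It reached a mean of 1 FPKM only through the DS-5272 samples. Under the block 30.3% of all genes rose. With the joined entries counted, an alternative chosen after seeing the data, 33 of 44 rose. Under TPM the median log2 fold change of the lysosomal genes was 0.57 in place of 0.82, that of all genes was -0.21, and 1717 of all genes rose in place of 2697. Leaving out 1 sample gave 1623 to 2934 genes risen and 1389 to 2432 fallen over all genes, lowest without vehicle replicate 2, with 1492 fallen without vehicle replicate 3. A sample left out also leaves fewer degrees of freedom. Depth in fragments is unknown, so the counting error of genes at a low level is not given.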
